A study of Mus musculus with 20 samples.

Results

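The reads described here are short pieces of the small nuclear RNAs (snRNAs), found among small RNAs sequenced from mouse bone marrow cultures. A tag is a distinct sequence of 18 to 45 nt with its read count. A tag was taken as an snRNA fragment when it lay wholly and without mismatch in 1 of the 1383 snRNA transcripts of GENCODE release M21 and matched no miRNA hairpin and no snoRNA. That gave 4109 of 7911246 tags, with 399073 of 299949470 reads (0.133%). Reads of a tag that fits several gene copies were divided equally over them, and levels are reads per 1000000 reads of the library (RPM).

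The series holds 20 libraries, 1 for each combination of cell type, genotype and stimulus. Bone marrow was grown into dendritic cells in GM-CSF, or into macrophages in a hybridoma supernatant that supplied M-CSF. It came from C57BL/6 wild-type mice or from mice of the strain B6.Cg-Mir155tm1.1Rsky/J, which lack miR-155 (knockout), all aged 8 to 12 weeks. Cells were left unstimulated or given LPS, a bacterial cell wall component that activates both cell types, or oxLDL, eLDL or LDL, lipoprotein preparations of which the labels do not spell out the first and second. Dendritic cells received LPS at 200 ng/ml overnight from day 8 to 9. For macrophages neither dose nor time of LPS is given in the labels, and for the lipoproteins no dose. No condition has a replicate and the labels do not say whether libraries came from separate mice, so p-values measure only the spread between these libraries.

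The libraries held 10.3 to 22.8 M reads (1 M is 1000000), at which 3 reads, the upper limit that a count of 0 allows, are 0.132 to 0.293 RPM (counting error only). Mature miR-155 was at 70.4 to 6113 RPM in wild-type and 0.167 to 0.461 RPM in knockout dendritic cells, and at 2867 to 21303 RPM in wild-type and 1.90 to 2.90 RPM in knockout macrophages, so the libraries matched their genotype labels. Summed miR-223 and miR-142, which mark myeloid cells, lay between 11270 and 16506 RPM in all libraries. Most of that sum was miR-142, at 8983 to 12984 RPM in dendritic cells and 10427 to 15595 RPM in macrophages. miR-223 alone was less even, at 933 to 2287 RPM in dendritic cells and 443 to 1679 RPM in macrophages. It was lowest with LPS in both cell types and both genotypes. The cell types also differed as sequencing data. Reads with an unread base made up 0.126 to 0.132% of each dendritic cell library and 6.84 to 7.18% of each macrophage library, and at least 98.6% of those macrophage reads had it at position 20. Such reads match no transcript exactly, and this feature of the sequencing and the cell type cannot be told apart. In bulk cultures, fewer cells of a type and less RNA per cell cannot be told apart either.

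snRNAs are short, stable nuclear RNAs that form, with proteins, the particles of the spliceosome. U1 pairs with the 5′ splice site, U2 with the branch point, U5 holds the exon ends and U6 forms part of the catalytic centre, while U11 and U12 do the work of U1 and U2 at the rare minor-class introns. U7 is not a splicing RNA but acts in the processing of histone mRNA 3′ ends. The splicing RNAs named here, except U6, carry an Sm site, a uridine-rich stretch around which a ring of Sm proteins closes.

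Most snRNA reads came from a short stretch of U2 around its Sm site. Shown here is that stretch, positions 88 to 121 of the 191 nt of U2 counted from the 5′ end, in the 2 sequence forms that held nearly all reads. Capitals mark the Sm-site motif, positions 99 to 105. Rnu2-10 (GRCm38 chr11:101658325-101658358, plus strand) has G at position 109, and Gm23444 (chr11:83271585-83271618, plus strand) carries G109C. Both lie in the single exon of their snRNA genes.
Rnu2-10: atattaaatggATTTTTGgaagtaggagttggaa
Gm23444: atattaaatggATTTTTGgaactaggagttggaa

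The most abundant U2 tags start at position 93. Shown here are the pair of short ends, 113 and 114, in both forms, which were called with LPS and with lipoproteins in macrophages. A tag with the longer end, 116, which was called with neither there, is shown as well. They are named by start, end and the base at position 109.
U2 93 to 113, G: aaatggATTTTTGgaagtagg
U2 93 to 114, G: aaatggATTTTTGgaagtagga
U2 93 to 113, C: aaatggATTTTTGgaactagg
U2 93 to 114, C: aaatggATTTTTGgaactagga
U2 93 to 116, C: aaatggATTTTTGgaactaggagt

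Fragments of the other classes came from other places. The most abundant U1 tag is the last 21 nt of Rnu1a1 (chr11:87423010-87423030, plus strand), the most abundant U11 tag lies at positions 107 to 127 of the 134 nt of Rnu11 (chr4:132270087-132270107, minus strand), and the leading U5 tag is the 3′ end of Gm25099, with the motif in capitals again.
U1 144 to 164: ctgcgttcgcgctctcccctg
U11 107 to 127: gctggtgatcgttggtcccgg
U5 87 to 116: aATTTTTTGaggtcctgctcgtgcagggct

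U2 held 79.8% of the snRNA reads, U1 11.5%, U5 3.79%, U11 1.88%, U6 0.980%, U12 0.699% and U7 0.471%. A further 0.848% fell on the 117 copies that resembled no named copy. These are called copies without a class, since the annotation names no U4, U4atac or U6atac copy, and their leading members were Gm24265 and Gm24407 on chromosome 5. Most reads counted here cannot be tied to a gene, as only 6.44% of all fitted a single copy. The U11 and U5 tags shown above were among those that did. In U2, 12 full-length copies held over 5000 reads each after the division, 7 with G and 5 with C at position 109.

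**Figure D1:**
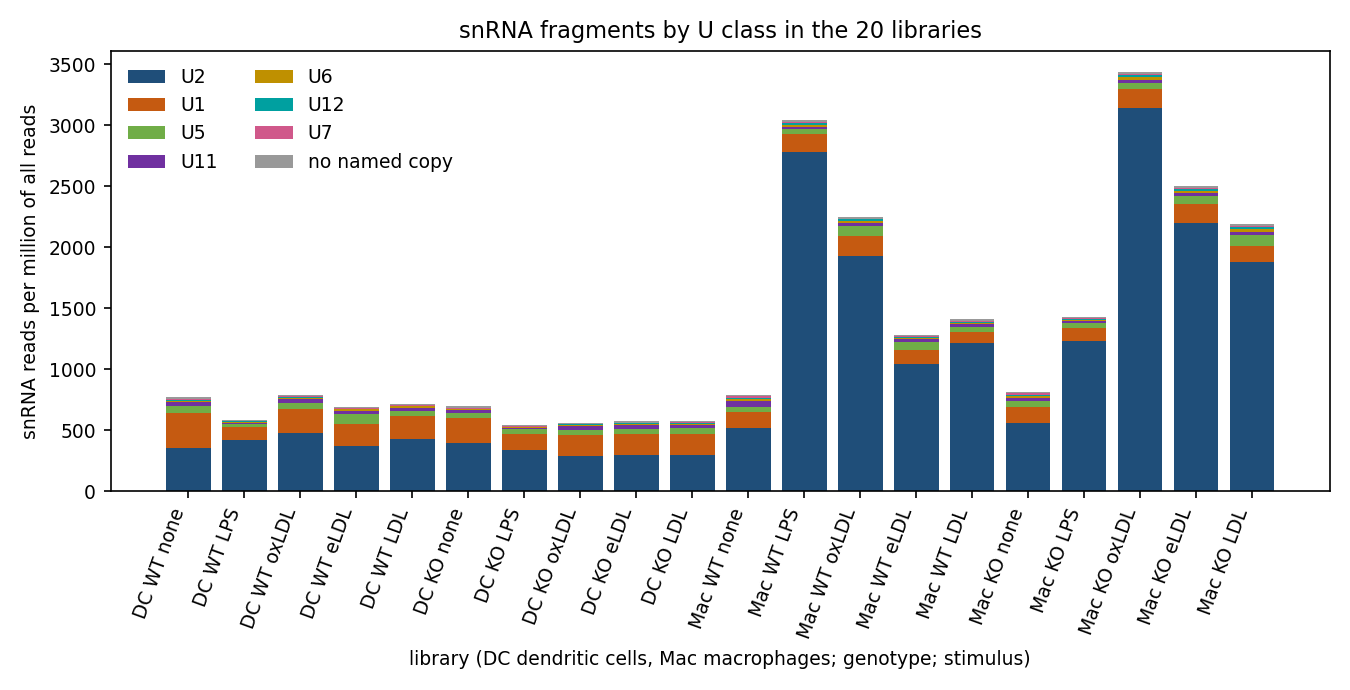
RPM of snRNA fragments in each library, stacked by U class. The bars of the 8 stimulated macrophage libraries (1283 to 3439 RPM) stand above those of the other 12 libraries (539 to 813 RPM), and the difference lies in the U2 segment.

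The place of the fragments differed by class. Of the U2 reads 99.0% were internal, meaning that they reached neither end of the RNA to within 5 nt, and 96.7% held the Sm-site motif. U1 fragments lay at the 3′ end (60.8%) or inside (36.5%), and U7 (89.4%) and U5 (56.4%) mostly at the 3′ end, whereas U11 (78.6%), U12 (71.6%) and U6 (92.5%) fragments were mostly internal. Fragments of the 5′ end made up at most 0.813% of the reads of any class. The motif, searched on the sense strand as ATTTNTG or ATTTTTTG, was present in 80.5% of snRNA reads and in 49 of the 58 snRNA tags abundant enough to be tested (84.5%). It was in 1.15% of the 16050 other tags tested, in 21.7% of snRNA transcripts and in 3.89% of 4729 other small transcripts. Rnu6 and Rnu7, the named copies taken for U6 and U7, held no match, and 0% of U7 reads did. A match is a description of the letters and not of protein binding.

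In dendritic cells snRNA fragments summed to 769, 580, 785, 691 and 714 RPM in the wild type (unstimulated, LPS, oxLDL, eLDL, LDL, the order used throughout) and to 695, 539, 558, 573 and 573 RPM in the knockout. In macrophages they summed to 787, 3040, 2246, 1283 and 1412 RPM in the wild type and to 813, 1429, 3439, 2501 and 2187 RPM in the knockout. The unstimulated macrophages were thus close to the highest dendritic cell library, and each of the 8 stimulated macrophage libraries lay above all others. Over the 10 pairs of matched genotype and stimulus, macrophages had 1266 RPM more than dendritic cells (SD 968), higher in 10 of 10 pairs (two-sided exact sign-flip permutation test, p = 0.00195, the smallest that 10 pairs allow, and 0.00651 adjusted over 10 such tests).

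Changes across libraries were tested with edgeR's quasi-likelihood test in a table of 1073 small RNA features in which all snRNA reads form 1 feature, at an adjusted p (Benjamini-Hochberg) under 0.05. A stimulus effect is fitted over the wild-type and the knockout pair. The snRNA total rose with LPS in macrophages by 1.53 ± 0.34 (log2 ± SE, adjusted p = 0.0151), where 3.91% of features were called higher, and with lipoproteins by 1.38 ± 0.30 (adjusted p = 0.0196), where 2.61% were. Both comparisons share the 2 unstimulated macrophage libraries, and both calls ended when either of these was left out (1.26 to 1.67 over the 4 fits). The call for LPS ended also without the LPS library of the wild type, at 0.53.

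In dendritic cells the total moved by -0.39 ± 0.33 with LPS (adjusted p = 0.431) and by -0.18 ± 0.27 with lipoproteins (adjusted p = 0.862), against 15% and 0% of features called in either direction. Neither was called. The LPS effect in macrophages minus that in dendritic cells had a median of 0.47 over all features, of which 4.19% were called higher. For the snRNA total this difference was 1.91 ± 0.48 and was called (adjusted p = 0.0366). That call ended in 13 of 20 fits that left out 1 library each (0.92 to 2.57), under TMM scaling (1.63) and without the filter on low features (1.91). In the table with U classes as features, described next, the same difference was 1.97 ± 0.54 for U2 (adjusted p = 0.0541) and 0.99 ± 0.31 for U1 (adjusted p = 0.0886), neither called, beside 5% of features called in either direction. Between cell types, averaged over all stimuli and the unstimulated libraries, the total was higher in macrophages by 1.46 ± 0.15 (adjusted p = 1.8e-06), as were 28.4% of features.

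U2 carried the rise. In dendritic cells U2 fragments were at 354, 416, 475, 368 and 431 RPM in the wild type and at 394, 339, 291, 295 and 296 RPM in the knockout. In macrophages they were at 518, 2782, 1930, 1043 and 1212 RPM in the wild type and at 562, 1227, 3145, 2201 and 1876 RPM in the knockout. Each stimulated macrophage library was above its unstimulated partner, by 2.01 to 5.60 times, and the order of the stimuli differed between genotypes: LPS gave the highest value in the wild type and the lowest stimulated value in the knockout.

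In the table with U classes as features (1080 tested), U2 rose with LPS in macrophages by 1.95 ± 0.39 (adjusted p = 0.0084) and U11, the minor-class counterpart of U1, fell by 1.20 ± 0.29 (adjusted p = 0.0223). These were 1 class of 8 called higher and 1 called lower, beside 3.89% and 2.41% of all features. With lipoproteins U2 rose by 1.74 ± 0.34 (adjusted p = 0.0117), again 1 class of 8 where 2.59% of features were called higher. The U2 calls ended without either unstimulated macrophage library, at adjusted p = 0.0705 and 0.0750 for LPS and 0.184 and 0.119 for lipoproteins, and without the filter on low features, at 0.0667 and 0.0836. Without the wild-type LPS library the LPS change of U2 was 0.85 (adjusted p = 0.116).

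No other class was called higher with LPS or lipoproteins in macrophages. U1 was at 128, 149, 161, 114 and 95.3 RPM in the wild type and at 128, 109, 155.8, 155.4 and 137 RPM in the knockout, so the stimulated libraries lay on both sides of the unstimulated ones. Its fitted change was 0.02 ± 0.22 with LPS and 0.07 ± 0.18 with lipoproteins, and that of U5 was -0.18 ± 0.41 and 0.52 ± 0.34. U12, which pairs with the minor-class branch point, was at 6.89, 19.5, 14.5, 8.75 and 6.62 RPM in the wild type. In the knockout it was at 11.1, 8.03, 20.7, 16.5 and 12.1 RPM, so most but not all stimulated libraries lay above the unstimulated one. It changed by 0.72 ± 0.49 with LPS and by 0.50 ± 0.40 with lipoproteins. None of these passed the test.

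**Figure D2:**
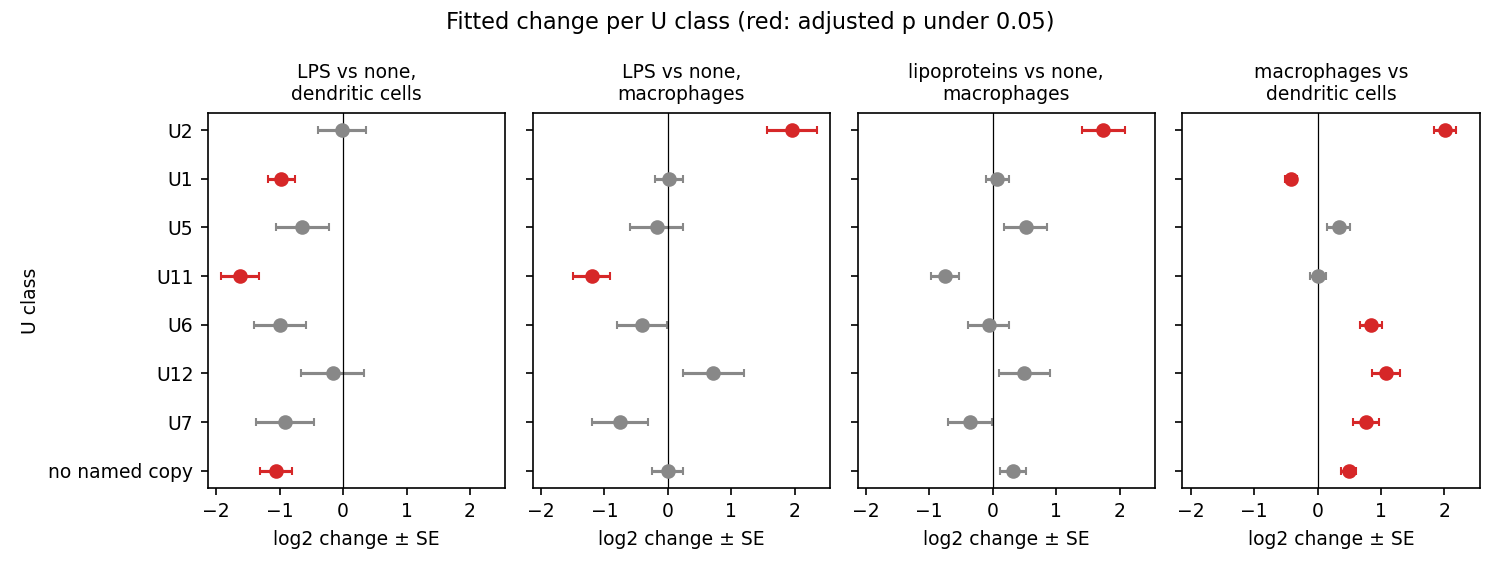
Fitted log2 change (points) with its standard error (bars) for each U class in 4 comparisons, with called classes in red. U2 is the class called higher in macrophages with LPS (1.95) and with lipoproteins (1.74), while U1 stayed near 0 there.

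Within U2 the rise came with a shift of the 3′ ends. In dendritic cells 57.1 to 75.6% of U2 reads ended at position 116 and 5.53 to 15.5% at position 113 or 114. Unstimulated macrophages had 18.8% (wild type) and 23.2% (knockout) at 113 or 114, and stimulated macrophages 44.3 to 68.8%. The 3 sets of libraries did not overlap in this share. It was noticed in these data and is given as a description, with no test.

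As levels, fragments that ended at 113 or 114 were at 19.6, 53.0, 68.4, 33.4 and 66.8 RPM in wild-type dendritic cells and at 42.2, 27.2, 22.1, 27.7 and 20.1 RPM in the knockout. In macrophages they were at 97.3, 1627, 1230, 604 and 833 RPM in the wild type and at 130, 647, 1809, 974 and 874 RPM in the knockout. Fragments that ended at 116 varied less, from 204 to 278 RPM in dendritic cells, 348 and 337 RPM in unstimulated and 278 to 1087 RPM in stimulated macrophages. The wild-type eLDL and LDL values, 324 and 278 RPM, were below both unstimulated ones, so the fragments with the longer end did not rise in every library.

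**Figure D3:**
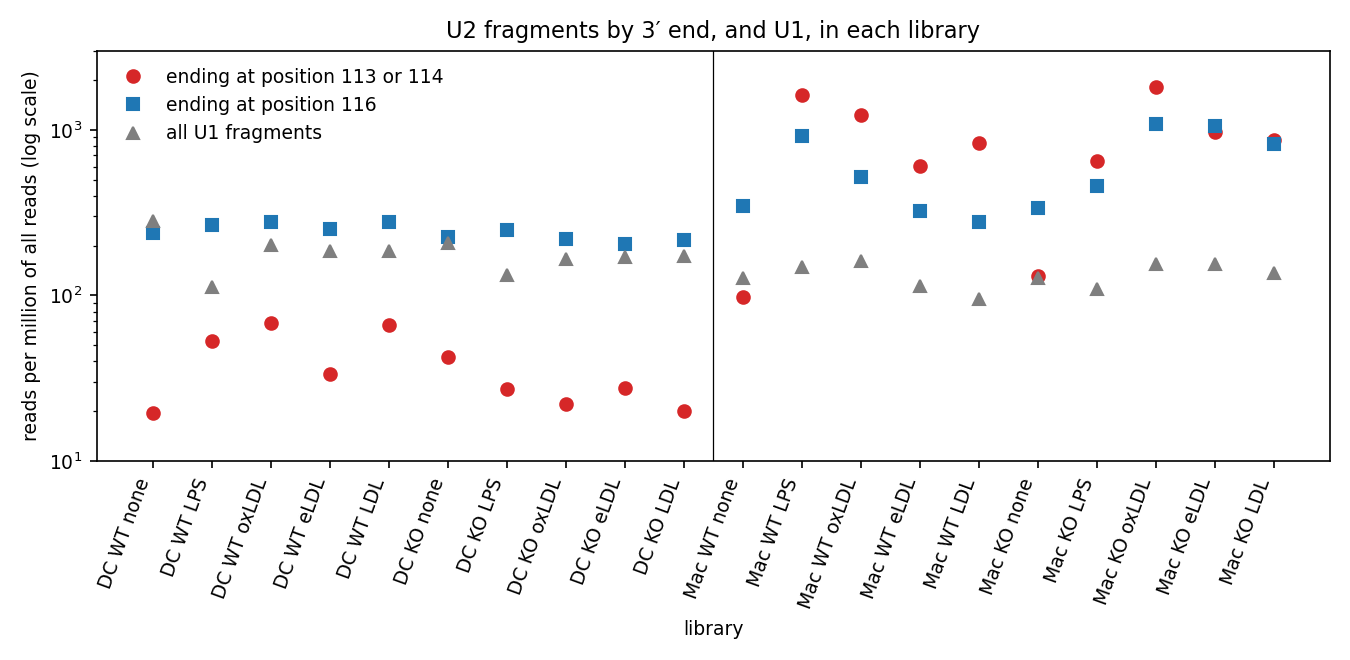
RPM (log scale) of U2 fragments ending at position 113 or 114 (circles) or at position 116 (squares), and of all U1 fragments (triangles), in each library. The circles lie at 19.6 to 68.4 RPM in dendritic cells, at 97.3 and 130 RPM in unstimulated macrophages and at 604 to 1809 RPM in stimulated macrophages.

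The start of the fragments shifted too. Of the U2 reads that ended at 113 or 114, those that began at position 93 made up 13.1 to 30.4% in dendritic cells, 45.2% and 43.2% in wild-type and knockout unstimulated macrophages, and 76.8 to 86.3% in stimulated macrophages. Of all U2 reads these products of 21 and 22 nt, G and C form together, made up 0.991 to 4.38% in dendritic cells, 8.48% and 10.03% in wild-type and knockout unstimulated macrophages, 48.4 to 58.2% in stimulated wild-type and 34.02 to 45.4% in stimulated knockout macrophages. Fragments of U2 averaged 701 RPM at 21 nt and 516 RPM at 22 nt in stimulated macrophages, 120 and 105 RPM in unstimulated macrophages, and 55.6 and 61.1 RPM in dendritic cells, where 24 nt was the most frequent length (70.8 RPM). The mean length of all snRNA fragments differed little between cell types, 22.1 nt in macrophages and 22.2 nt in dendritic cells (exact sign-flip permutation test over 10 pairs, adjusted p = 0.317).

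**Figure D4:**
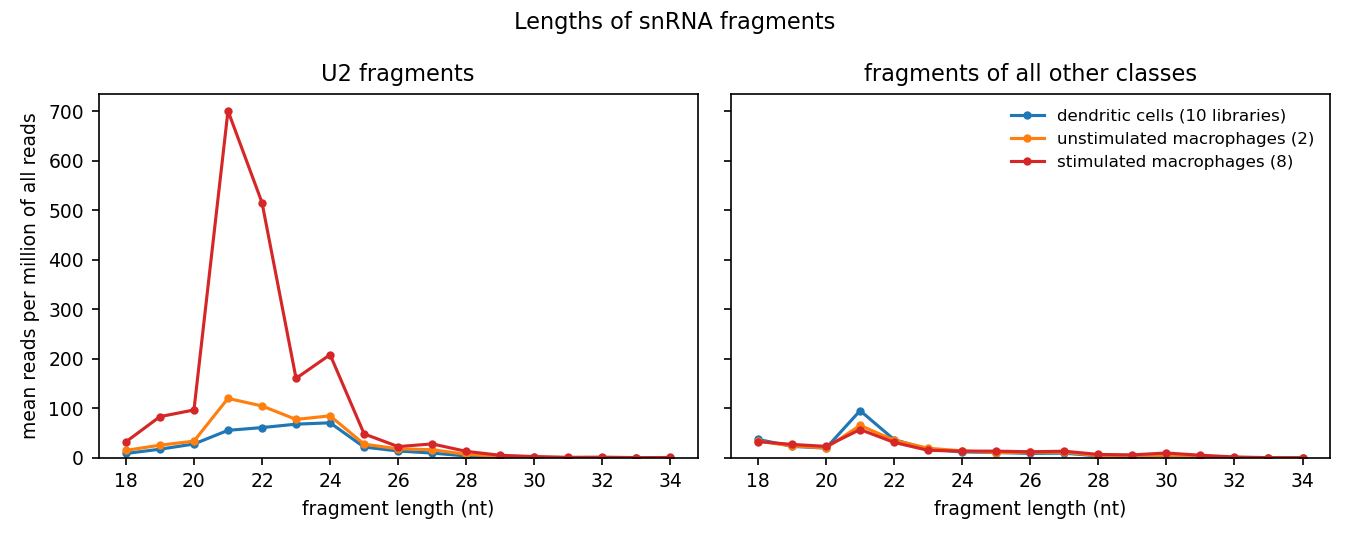
Mean RPM of snRNA fragments by length (18 to 34 nt) for U2 on the left and for all other classes on the right, in dendritic cells, unstimulated macrophages and stimulated macrophages. The U2 curve of stimulated macrophages peaks at 21 nt (701 RPM). At the same length the other classes average 95.4 RPM in dendritic cells, 65.5 RPM in unstimulated and 57.2 RPM in stimulated macrophages.

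Single tags were tested among the 16108 sequences with at least 5 RPM in at least 2 libraries. Of the 4109 snRNA tags 58 passed this filter and held 79.8% of the snRNA reads. Since 29 of the 58 passed through macrophage libraries alone and 5 through dendritic cell libraries alone, the counts between cell types follow in part from the filter. Likewise 24 of the 58 passed through stimulated macrophage libraries alone, so that their changes with LPS or lipoproteins in macrophages follow in part from the filter too. The 58 were 46 tags of U2, 6 of U1, 3 of U5 and 3 of U11.

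The tag U2 93 to 113 with G was at 0.547, 2.66, 1.38, 1.99 and 6.07 RPM in wild-type dendritic cells and at 2.73, 0.700, 1.58, 2.67 and 0.878 RPM in the knockout. In macrophages it was at 22.0, 556, 453, 198 and 315 RPM in the wild type and at 25.4, 236, 729, 376 and 319 RPM in the knockout. The 3 sets of libraries were again apart, which is a description only, since the tag was chosen for its abundance and its calls in these data. It changed by 4.09 ± 0.78 with LPS in macrophages (adjusted p = 0.0149), by 3.98 ± 0.73 with lipoproteins (adjusted p = 0.0255) and by 6.76 ± 0.41 between cell types (adjusted p = 2.8e-09). In dendritic cells it exceeded the limit of 5 RPM in the wild-type LDL library alone, so it entered the test through macrophage libraries. Its difference between cell types thus follows in part from the filter.

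With LPS in macrophages 9 of the 58 tags were called higher, all from U2 and 4 of them among those 24, and 0 lower, where 1.47% of all tags were called higher and 1.14% lower. By 3′ end they were 1 tag ending at 112, 3 of 9 ending at 113, 2 of 8 at 114, 2 of 7 at 115 and 1 of 18 at 116. The changes of the named ones ran from 4.02 ± 0.71 for U2 93 to 114 with C to 5.46 ± 0.91 for a minor tag of 20 nt, U2 93 to 112 with G, which stood at 0.593 and 0.103 RPM in unstimulated macrophages and passed the filter only through stimulated ones. With lipoproteins in macrophages 8 tags were called higher, all from U2 and again 4 of them among those 24, and 0 lower, beside 0.596% and 0.832% of all tags. The called tag U2 93 to 113 with C changed by 4.20 ± 0.50 (adjusted p = 0.0041), and none of the 18 U2 tags ending at 116 was called.

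The calls for single tags rest on the unstimulated libraries as well. Without either of them, or without the wild-type LPS library, 1 to 2 tags were called with LPS in macrophages. Lipoprotein counts fell to between 0 and 4 without either unstimulated library, without either oxLDL library or without the knockout LDL library.

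**Figure D5:**
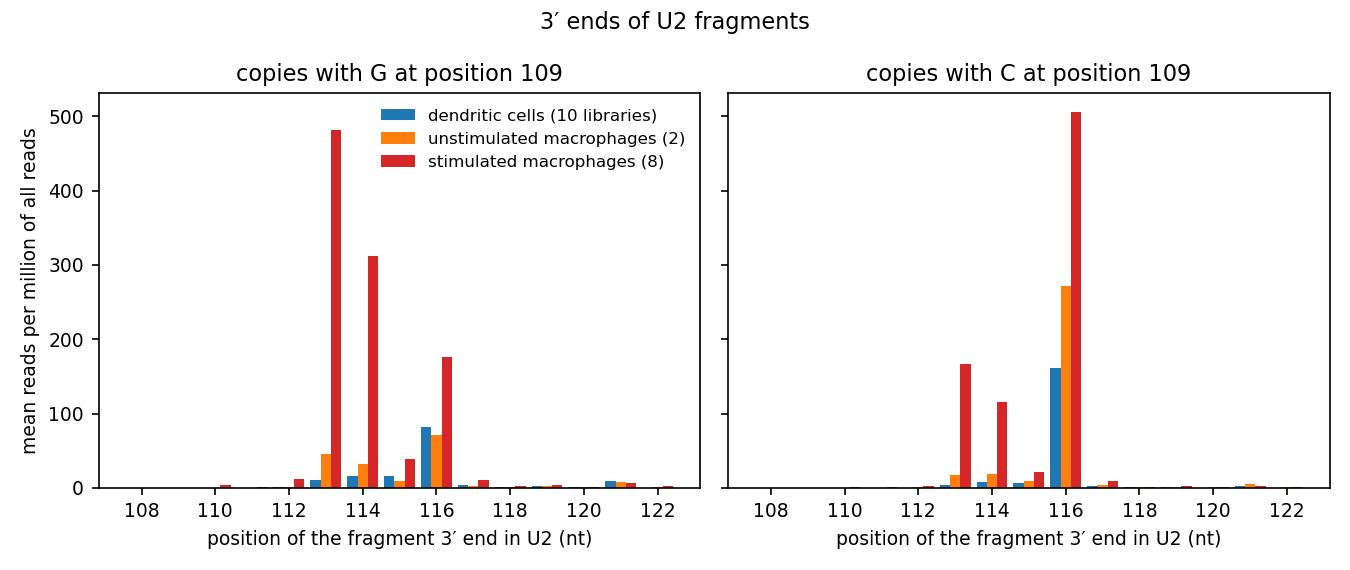
Mean RPM of U2 fragments by the position of their 3′ end, for copies with G (left) and with C (right) at position 109. In dendritic cells both forms peak at position 116. In stimulated macrophages the G form peaks at 113 and the C form still at 116.

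The share of the C form among U2 reads was lower in stimulated than in unstimulated macrophages, together with the shift of the 3′ ends. Reads with C at position 109 were 50.6 to 62.7% of the U2 reads that covered the position in dendritic cells, 65.7% and 64.7% in wild-type and knockout unstimulated macrophages, and 37.8 to 50.6% in stimulated macrophages. Among fragments that ended at 116 the C form stayed above the G form in every library, at 62.0 to 80.2%. It made up 78.7% and 80.2% of them in unstimulated and 70.4 to 75.9% in stimulated macrophages. Of fragments that ended at 113 or 114 it made up 23.7 to 47.4% in dendritic cells. In macrophages that share was 29.0% and 32.9% unstimulated and 25.2 to 27.2% stimulated. At a given end the share thus moved less than over all U2 reads. The tag U2 93 to 116 with C was at 34.5 to 54.8 RPM in dendritic cells, at 58.3 and 49.95 RPM in unstimulated and at 63.7 to 242 RPM in stimulated macrophages. It was called between cell types (1.39 ± 0.21, adjusted p = 3.4e-05) but not with LPS or lipoproteins in macrophages.

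Other classes fell with LPS in dendritic cells. U1 was at 283, 113, 201, 185 and 186 RPM in the wild type and at 207, 134, 167, 171 and 173 RPM in the knockout, so both LPS libraries were below the other 8. U11 was at 33.3, 8.06, 28.1, 30.4 and 29.4 RPM in the wild type and at 25.3, 11.02, 31.5, 38.6 and 23.7 RPM in the knockout, with the LPS libraries again lowest. U1 fell by 0.97 ± 0.22 (adjusted p = 0.0096), U11 fell by 1.62 ± 0.30 (adjusted p = 0.0029) and the copies without a class fell by 1.06 ± 0.26 (adjusted p = 0.0142). These were 3 of 8 classes called lower and 0 called higher, beside 10.9% and 4.26% of all features.

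U2 stayed at -0.02 ± 0.38 in that comparison. The median of all features with LPS in dendritic cells was -0.39 when scaled to all reads, and -0.11 when scaled by TMM, a scaling that assumes most features do not change. Under TMM U1 fell by 0.69 and U11 fell by 1.34, both still called, and the copies without a class fell by 0.78, no longer called (adjusted p = 0.0554). The call for the latter ended also with DESeq2 (adjusted p = 0.130) and without the unstimulated or the LPS library of the wild type or the LPS library of the knockout (adjusted p = 0.135, 0.148 and 0.0532). The call for U1 ended without the unstimulated or the LPS library of the wild type (adjusted p = 0.111 and 0.174) and without the filter (adjusted p = 0.0534). That for U11 ended without the LPS library of the wild type (adjusted p = 0.0606).

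In the table that splits classes by position, where 11% of features were called lower, fragments of the 3′ end of U1 fell by 1.55 ± 0.27 and internal fragments of U11 fell by 2.01 ± 0.35 (adjusted p = 0.0024 for each). Internal U1 fragments moved by -0.11 ± 0.29 and 3′-end fragments of U11 by -0.44 ± 0.38, neither called, and the difference between the pieces was not tested. The small group of U2 fragments at the 3′ end of that RNA fell by 1.71 ± 0.49 (adjusted p = 0.0359), and the reads assigned to U2 copies that differ from the main copy by more than 5 nt in length fell by 1.37 ± 0.36 (adjusted p = 0.0233). Of the 58 tags, 2 were called lower and 0 higher with LPS in dendritic cells, where 4.47% and 2.23% of all tags were. U1 144 to 164 went from 127 and 82.0 RPM unstimulated to 24.4 and 31.6 RPM with LPS (wild type and knockout), a change of -1.88 ± 0.32 (adjusted p = 0.0054). U11 107 to 127 went from 7.18 and 5.32 RPM to 1.15 and 2.33 RPM, a change of -1.88 ± 0.51 (adjusted p = 0.0454). The call for this U11 tag ended in 10 of 20 fits that left out 1 library each, with the change between -2.37 and -1.42, and that for the U1 tag in 2 of 20. The count of 2 became 0 and 1 without the unstimulated or the LPS library of wild-type dendritic cells, 5 without either eLDL library of macrophages and 1 without 1 of their oxLDL or LDL libraries.

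In macrophages U11 was at 49.9, 14.7, 25.1, 19.8 and 26.1 RPM in the wild type and at 28.4, 18.6, 22.5, 22.8 and 21.8 RPM in the knockout, highest without stimulus in both. Its fall with LPS was not called under TMM (-1.15, adjusted p = 0.0501) or without the unstimulated or LPS library of the wild type (-0.75 and -0.91). Internal U11 fragments fell by 0.99 ± 0.25 with lipoproteins in macrophages (adjusted p = 0.0425), where 1.93% of features in the table by position were called lower, and the whole class moved by -0.75 ± 0.22 (adjusted p = 0.0862).

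Lipoproteins gave 0 called classes and 0 called tags in dendritic cells with edgeR, where 0% of features and of tags were called, with an unadjusted p under 0.05 for 8 of the 58 tags and for 1 of the 8 classes, U1. DESeq2 also called 0 of the 58 tags and 0 of the 8 classes. U1 moved by -0.43 ± 0.17 (adjusted p = 0.314) and U2 by -0.10 ± 0.31.

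Loss of miR-155 gave no called class in either cell type with edgeR, beside 1.85% of features called in dendritic cells and 8.98% in macrophages in either direction. DESeq2 called none of the 8 either, and the unadjusted p was under 0.05 for 0 of 8 in both. U2 moved by -0.34 ± 0.24 in knockout dendritic cells (adjusted p = 0.669) and by 0.29 ± 0.25 in knockout macrophages (adjusted p = 0.53). In macrophages the lipoprotein libraries of the knockout were above those of the wild type (3145, 2201 and 1876 against 1930, 1043 and 1212 RPM of U2) and the LPS library below (1227 against 2782 RPM). Without either LPS library of macrophages the genotype change of U2 was 0.63 and was called (adjusted p = 0.0211 and 0.0208).

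One of the 58 tags was called between genotypes in dendritic cells, where 0.391% of tags were called lower. This was U2 95 to 114 with C, at 2.11, 2.30, 4.06, 2.17 and 3.26 RPM in the wild type and at 0.478, 1.17, 1.185, 1.002 and 0.683 RPM in the knockout, which do not overlap (-1.61 ± 0.31, adjusted p = 0.0276). The call ended in 12 of 20 fits that left out 1 library each, among them every fit without a dendritic cell library. In macrophages 0 tags were called with edgeR, beside 4.08% of all tags, and 11 had an unadjusted p under 0.05. Over 10 matched pairs the snRNA total was 1331 RPM in the knockout and 1231 RPM in the wild type, higher in 4 of 10 pairs (exact sign-flip permutation test, adjusted p = 0.879).

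Between cell types, averaged over all stimuli and the unstimulated libraries, 5 of 8 classes were higher and 1 lower in macrophages, beside 28.6% and 27.9% of features. U2 was higher by 2.01 ± 0.17 (adjusted p = 2.5e-07), U12 by 1.08 ± 0.22 (adjusted p = 7.0e-04), U6, the catalytic snRNA, by 0.84 ± 0.18 (adjusted p = 0.0011) and U7 by 0.77 ± 0.20 (adjusted p = 0.0046). The copies without a class were higher by 0.49 ± 0.11, and U1 was lower, at -0.42 ± 0.10 (adjusted p = 0.0017). U5 (0.33 ± 0.18) and U11 (0.01 ± 0.13) were not called. Against the miRNA reads as library size U1 was not called either (-0.19, adjusted p = 0.116).

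Without stimulus, U2 was at 518 RPM in macrophages and 354 RPM in dendritic cells of the wild type, and at 562 and 394 RPM in the knockout. These differences were smaller than the average over stimuli. For U2 the fitted difference between cell types was 2.37 without both unstimulated macrophage libraries and 2.13 when an unread base was matched with any base. For U6, levels ran from 4.24 to 13.0 RPM in dendritic cells and from 10.8 to 26.0 RPM in macrophages, so the groups overlapped. U12 ran from 2.80 to 7.90 RPM and from 6.62 to 20.7 RPM, with overlap too. U7 was at 2.59 to 7.18 RPM and at 2.72 to 11.2 RPM.

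Of the 58 tags 40 were higher in macrophages (39 of U2 and 1 of U5) and 5 lower (4 of U1 and 1 of U11), beside 35.5% and 27.2% of all tags. All 9 U2 tags ending at 113 and all 8 ending at 114 were called higher, as were 15 of the 18 ending at 116. Their medians were 3.47, 2.13 and 1.13, against 0.19 over all tags. Since 29 of the 58 tags passed the filter through macrophage libraries alone and 5 through dendritic cell libraries alone, these counts and medians follow in part from it. U1 144 to 164 was at 24.4 to 127 RPM in dendritic cells and at 26.8 to 50.2 RPM in macrophages (-0.85 ± 0.14, adjusted p = 7.9e-05).

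The share of snRNA reads that held the 3′ end of the RNA was 24.9% in dendritic cells and 8.53% in macrophages, a mean difference of -16.4 points (SD 5.50) with 0 of 10 pairs higher in macrophages (exact sign-flip permutation test, adjusted p = 0.00651). The reads it is taken of include internal U2 fragments, higher in macrophages by 2.03 ± 0.18. As levels, 3′-end fragments of U2 (0.74 ± 0.21), U5 (0.69 ± 0.25), U7 (0.61 ± 0.21) and U11 (0.42 ± 0.17) were called higher in macrophages. Those of U1 were called lower (-0.71 ± 0.12) and those of U12 were not called (-0.10 ± 0.23). Of the 1089 features split by position, 314 were called higher and 302 lower. Reads from the strand opposite to an snRNA were rare, 437 in all and at most 4.50 RPM. They averaged 2.07 RPM in macrophages and 0.780 RPM in dendritic cells, higher in 10 of 10 pairs (exact sign-flip permutation test, adjusted p = 0.00651).

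Markers of other cells moved with the cell type and, in macrophages, with the stimulus as well. miR-150, a lymphoid marker, was at 3.34 to 13.0 RPM in dendritic cells and 34.03 to 86.0 RPM in macrophages, and the sum of the epithelial markers (miR-200c, miR-141 and miR-203) was 19.5 to 47.4 and 40.8 to 78.7 RPM. In that sum miR-203 went the other way, at 4.54 to 21.7 RPM in dendritic cells and 1.56 to 9.40 RPM in macrophages. Within macrophages miR-150 was at 34.03 RPM unstimulated and 49.6 to 86.0 RPM stimulated in the wild type and at 47.1 and 62.7 to 82.6 RPM in the knockout. The epithelial sum was 40.8 and 47.3 to 65.5 RPM in the wild type and 58.4 and 62.5 to 78.7 RPM in the knockout. Both miR-150 and the epithelial sum were thus higher in each of the 8 stimulated macrophage libraries than in the unstimulated one of the same genotype, as U2 was. Not every member of the sum was: in knockout macrophages miR-203 was at 6.15, 6.11, 6.50, 4.16 and 3.72 RPM. In the wild type miR-200c was at 23.16 RPM with eLDL and 23.20 RPM unstimulated. The other stimulated values of the members were above the unstimulated ones. The stromal sum (miR-143 and miR-145a) went with the genotype instead, at 22.97 to 95.9 RPM in wild-type and 1.07 to 3.56 RPM in knockout dendritic cells. It was 144 RPM in unstimulated wild-type macrophages, a library on which the macrophage calls rest, 12.9 to 58.0 RPM in the stimulated ones and 0.308 to 11.1 RPM in the knockout. Erythroid markers reached 5.23 RPM at most, miR-122 2.22 RPM and miR-126a 9.92 RPM in any library. Their part in the snRNA differences was not tested.

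Of the other RNAs of nuclear RNA processing and of the housekeeping small RNAs that were listed, 23 were tested: 9 scaRNAs, which guide the modification of snRNAs, and 14 others. With LPS in macrophages 0 of the 23 were called with edgeR (5 had an unadjusted p under 0.05), their median change being 0.03 and that of all features 0.08. With lipoproteins in macrophages 4 rose, the 4 copies of U3 (Rnu3b1 to Rnu3b4), which share their reads and give 1 value (0.53 ± 0.12, adjusted p = 0.0204), beside 2.59% of all features. U3 guides ribosomal RNA processing. None of the 9 scaRNAs was called with LPS or lipoproteins in either cell type. In the LPS effect in macrophages minus that in dendritic cells, 5 of the 23 were called higher and 2 lower. That compares with 5% of all features called in either direction. These 7, of which 0 were scaRNAs, are not named here. The median of the 23 in this difference was 0.68 and that of all features 0.47.

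With LPS in dendritic cells 2 of the 23 rose and 2 fell, beside 4.26% and 10.9% of all features. Vaultrc5, the RNA of the vault particle, rose by 1.43 ± 0.15 and the Y RNA Rny1 rose by 2.17 ± 0.38, whereas Rn7sk, the 7SK RNA that restrains transcription elongation, fell by 1.01 ± 0.28 and Rnu3a fell by 0.95 ± 0.23. Between cell types 6 were higher, 4 of them the U3 copies with 1 value, and 5 lower in macrophages, beside 28.6% and 27.9% of all features, and 1 scaRNA of 9 was called each way (Gm25492 and Scarna2). Loss of miR-155 gave 1 called higher (Vaultrc5) and 1 lower (Rnu3a) in dendritic cells, where 0.926% of features were called each way, and 5 higher (Vaultrc5 and the 4 U3 copies) in macrophages, where 5.19% of features were called higher.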

How the data were processed

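Per the labels' protocols, RNA was isolated by Trizol and converted with Illumina's TruSeq small RNA kit. The deposited files list sequences with whole-number read counts. Per the submitters' processing notes CASAVA 1.8.2 was used; for trimming, aligner and build the sources used here give none. Tags were matched without mismatch to GENCODE M21 (GRCm38) transcripts, and 221 reads that fitted miRNA hairpins or snoRNAs were left out. A copy was given the U class of the named copy it matched best with BLAST 2.17.0 (at least 70% identity over 50% of its length). Of the snRNA reads 60.0% fitted a named copy and 2.17% also fitted another transcript.

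Features needed 1 RPM, and single tags 5 RPM, in 2 libraries. Counts were fitted with edgeR 4.0.16 (R 4.3.3, robust quasi-likelihood) over all 20 libraries, with all reads as library size and terms for culture and for stimulus within cell type (8 residual degrees of freedom). Each SE is the log2 change over the square root of F, and p-values were adjusted over the whole table. The fit was tested on simulated data: with LPS in macrophages it recovered 32 of 101 changes of log2 1 and 72 of 99 of log2 2 among 1080 features. Alternatives were TMM, miRNA reads as library size, DESeq2 1.42.0, other filters, tag sets and matching, and leaving out libraries. Named tags are the 3 most abundant of each class above 10 RPM and up to 5 called each way per comparison with at least 50 reads and the same direction in every pair. Of the listed RNAs up to 4 with the largest called change per comparison were to be named; the 5 called in knockout macrophages and both scaRNAs are named beyond that rule. U6 tags are not printed. The members, lists and tests were chosen with earlier results of these data known.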

Additional observations from a re-analysis of the deposited data

Results flagged for a closer look

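The LPS effect on the snRNA total differed between the cell types. It was 1.53 ± 0.34 in macrophages and -0.39 ± 0.33 in dendritic cells, and the difference itself was 1.91 ± 0.48 (log2 ± SE, edgeR's quasi-likelihood test, adjusted p = 0.0366). Its call ended in 13 of 20 fits that left out 1 library each, under TMM scaling and without the filter on low features. Among the U classes the same difference was 1.97 ± 0.54 for U2 (adjusted p = 0.0541) and 0.99 ± 0.31 for U1 (adjusted p = 0.0886), neither called. All features had a median of 0.47 in this difference, and of 0.22 under TMM in the table with U classes. With LPS in dendritic cells their median was -0.39, as was the change of the snRNA total.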

How the results depend on the processing

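No fit with a replicate number as block was made, since the labels give none and no condition has a replicate; the pairs used are libraries matched on genotype and stimulus, or on genotype and cell type. Of 695 values under alternatives for the 33 main results, 599 were rated the same, meaning the same side of the threshold or a similar count. Of the others 28 lost and 2 gained the call, 66 counts or values moved and 0 called changes reversed. Changes that were not called could switch sign and still be rated the same, as the total with LPS in dendritic cells did (-0.63 to 0.045). For 95 results on single classes and tags, 138 of 2606 values lost and 15 gained the call, and 0 called changes reversed. Except where the alternative itself changes which sequences are tested (filters, named copies), the cause was not tested.

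For the snRNA total, calls ended without a filter at 1.53 (LPS in macrophages), 1.38 (lipoproteins in macrophages) and 1.91 (LPS effect between cell types), and under TMM for the last at 1.63. Of the U classes, 2 were called with LPS in macrophages, against 1 under TMM and 0 without a filter, and 1 with lipoproteins, against 2 with DESeq2 and 0 without a filter. In the difference of the LPS effects 0 were called, against 3 with miRNA reads as library size and 1 each with a filter of 5 RPM and with named copies only. Tag counts with LPS in dendritic cells were 2, against 4 (miRNA reads), 10 (DESeq2) and 1 (filter of 1 RPM), and in macrophages 9, against 14 (DESeq2) and 5 (filter of 1 RPM). With lipoproteins in macrophages they were 8, against 15, 1 and 5 (DESeq2, filter of 1 RPM, named copies only), between genotypes in dendritic cells 1, against 3, 0 and 0, and between cell types 45, against 101 with a filter of 1 RPM and 22 with named copies only.

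Leaving out 1 library at a time, the total changed by 0.53 to 2.19 with LPS and by 1.23 to 1.53 with lipoproteins in macrophages, by 0.062 to 0.56 between genotypes in macrophages and by 0.92 to 2.57 in the difference of the LPS effects, whose call ended in 13 of 20 such fits. Called classes ranged from 0 to 3 (LPS, dendritic cells), 0 to 2 (LPS, macrophages), 0 to 1 (lipoproteins, macrophages), 0 to 1 (knockout, macrophages) and 0 to 2 (difference of LPS effects). Called tags ranged from 0 to 5 (LPS, dendritic cells), 1 to 11 (LPS, macrophages), 0 to 11 (lipoproteins, macrophages), 0 to 2 (knockout, dendritic cells) and 0 to 5 (knockout, macrophages). Split by genotype, 5 pairs cannot go below an exact p of 0.0625, and macrophages exceeded dendritic cells by 1046 RPM (wild type) and 1486 RPM (knockout) of snRNA reads, by -14.8 and -18.0 points in the share holding the 3′ end and by 0.975 and 1.61 RPM of antisense reads. A count of 0 allows up to 0.293 RPM in the shallowest library.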
